A study of Mus musculus with 12 samples.

Results

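The inflammasome and interleukin-1 family was followed through 10 genes in cultured microglia of the mouse, which are the macrophages that reside in brain tissue. The members were taken by name: the sensor Nlrp3, the adaptor Pycard, the proteases Casp1 and Casp4, the pore former Gsdmd, the cytokines Il1a, Il1b and Il18, and the antagonists Il1rn and Il18bp. For each gene the brightest probe set carrying that symbol alone was used, and each member had exactly 1 such probe set. All 10 passed a filter on dim signals (a mean over the 12 arrays above 5.36 on the log2 scale), as did 15273 of 19938 named genes. Signals are log2 values throughout, so a difference of 1 between groups is a doubling, and levels of different genes are not set against each other.

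An inflammasome is a cytosolic complex in which a sensor such as NLRP3, once activated, recruits the adaptor ASC (encoded by Pycard) and through it caspase-1, which cuts the precursors of interleukin-1 beta and interleukin-18 and the pore-forming protein gasdermin D. Transcription of the sensor and of the interleukin-1 genes is the priming step, driven in macrophages by NF-kappa B below Toll-like receptors. Activation itself happens at the level of protein, which these arrays did not measure.

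Primary microglia labelled wild type or Tlr4 knockout were kept for 24 h in hypoxic or hypoglycemic medium, here called ischemia, or in control medium, and every culture then had 24 h under control conditions, called reperfusion. TLR4 is the receptor for bacterial lipopolysaccharide and signals to NF-kappa B. Genotype and condition together make 4 groups of 3 arrays, numbered 1 to 3 in each. The labels give no strain, age, sex or allele design, do not say whether hypoxia and low glucose were combined, and leave unsaid if arrays within a group stem from different cultures, so the p-values below measure only the spread between these arrays.

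Several facts of the labels and arrays touch all results. For 3 arrays, those of the wild-type ischemia group, the title and the series key name hypoxia while the source field names normoxia, and the titles were followed. The Tlr4 probe set had group means of 8.76 in wild-type control, 8.71 in wild-type ischemia, 8.66 in knockout-labelled control and 8.76 in knockout-labelled ischemia, with overlapping ranges, so the signal did not show the deletion. Whether this probe set covers the deleted part of the gene is not stated in these sources, and the genotype is therefore called knockout-labelled. The extraction protocol names myocytes. The mean of 10 myocyte markers, 9 of which passed the dim filter, lay between 5.84 and 6.06 on all arrays, and whether the RNA held any from myocytes was not tested. Of 13 measured microglia markers 12 passed the dim filter, among them Csf1r, a receptor that macrophages and microglia need to survive, at 11.93 to 12.63. P2ry12, a receptor of resting microglia, had its lowest value at 5.34 and its highest at 6.27.

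The wild-type arrays numbered 2 stood apart. Their mean over the microglia markers was 9.22 in control and 9.21 after ischemia, against 8.40 to 8.65 on the other 10 arrays. Their mean over 11 markers of monocytes and border-associated macrophages, 7 of which passed the dim filter, was 7.41 in control and 7.26 after ischemia, against 6.65 to 7.04 elsewhere. The list was mixed: over the 12 arrays Mrc1 lay at 10.7 to 11.5 and Stab1 at 9.9 to 11.7, while Cd163 lay at 5.21 or lower. The wild-type array numbered 2 was the highest of its group for 6 of the 10 members in control and for 7 of 10 after ischemia. Knockout-labelled control array 2, with a microglia marker mean of 8.63, was also the highest of its group for 6 of 10. The share of all genes was not counted, so these member counts do not set the wild-type arrays apart. In bulk RNA a change in the share of a cell type and a change in RNA per cell cannot be told apart, and the part of these markers in the results was not tested. Neutrophil markers, of interest because neutrophils carry much interleukin-1 message, averaged 5.37 to 5.68 on all arrays, and 6 of 11 passed the dim filter. In this list S100a8 lay at 5.82 or lower, while Csf3r lay at 8.52 to 9.17.

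In wild-type cells Il18 had the largest mean difference with condition, and Il1a the widest spread between array numbers. Il1a ran from 6.27 to 9.08 over the 12 arrays, the widest range among the members, and Il1b from 5.45 to 7.98. Pycard, by contrast, stayed between 8.31 and 9.01 and Il18bp between 7.31 and 7.75. In wild-type cells the spread between the means of same-numbered pairs was wider than the mean change with ischemia for 9 of the 10 members, Il18 being the exception, and in knockout-labelled cells for 5 of 10. The share of all genes with such a spread was not counted, so these counts are not shown to be particular to the members. Ordered by group mean, neighbouring groups overlapped for every member except Gsdmd, for which the wild-type control arrays all lay above the knockout-labelled ischemia arrays. How many of all genes had such a gap was not counted either.

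**Figure D1:**
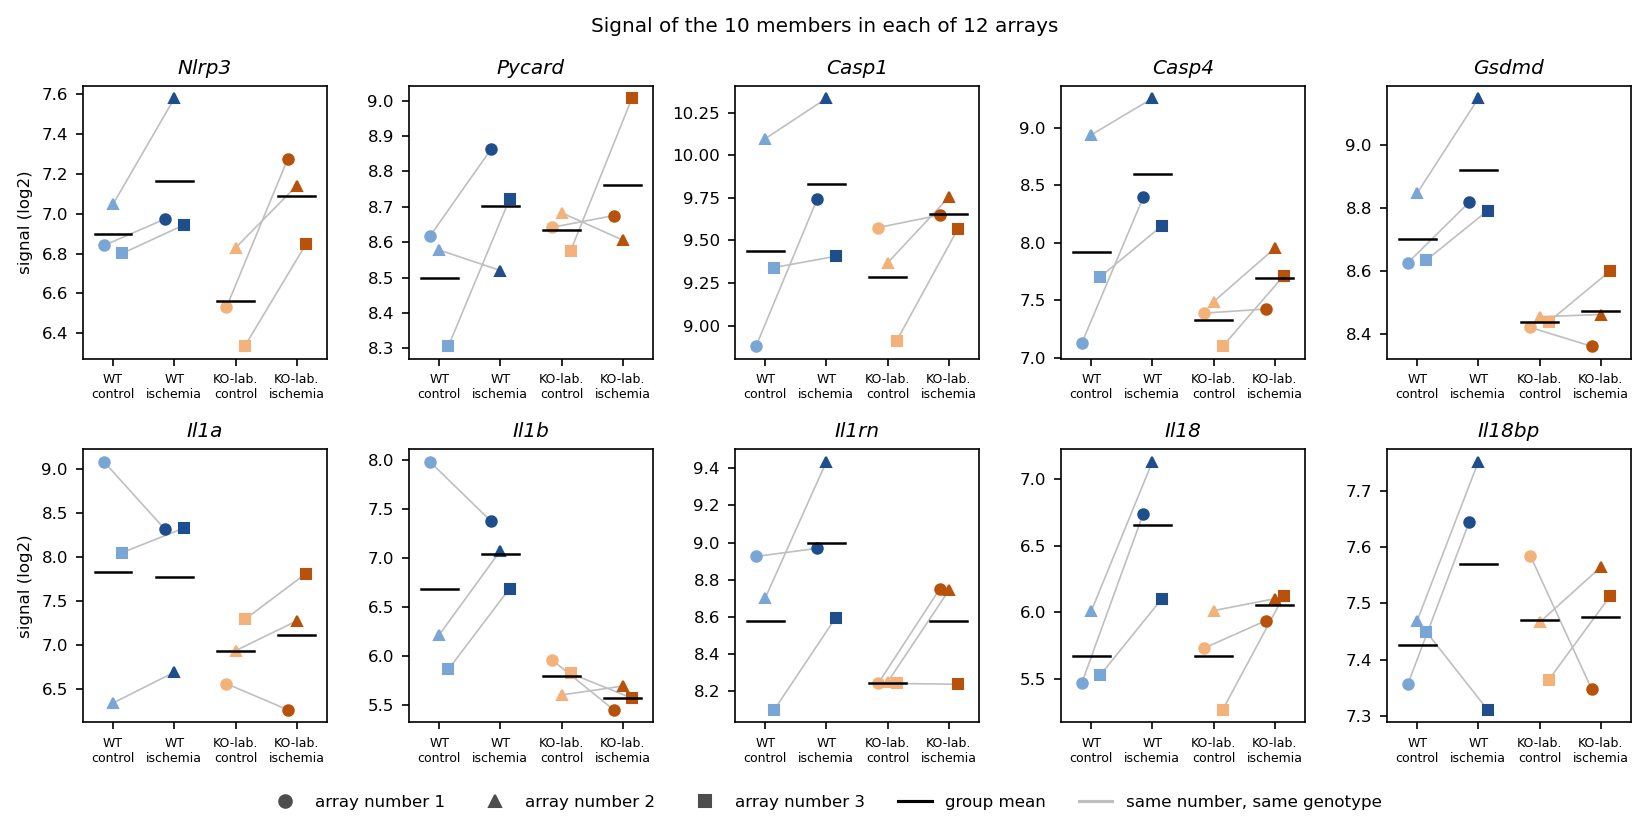
Signal (log2, vertical axis, own scale per gene) of the 10 members on each of the 12 arrays, by group on the horizontal axis, with array number as marker shape, a black bar for the group mean and grey lines joining arrays of the same number and genotype. Il18 rises along all 3 wild-type lines, Il1a is ordered by array number more than by condition, and all 6 knockout-labelled Il1b values, 5.45 to 5.96, lie at the foot of the panel.

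In wild-type microglia the question was how these genes stood after ischemia and reperfusion. Signals leaned upward: 9 of the 10 members had a higher mean after ischemia, and Il1a a lower one. Of all genes tested, 52.4% had a higher mean. The median member difference was 0.31, against 0.01 over all genes. The labels do not explain the array numbers, so pairing same-numbered arrays within a genotype was a choice made from these same data. Il18 and Casp4 passed the test when same-numbered arrays were treated as pairs, and no member passed it without pairs.

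Both counts come from limma fits that adjust p-values over all 15273 genes by the Benjamini-Hochberg method with a threshold of 0.05. The limma fit with 1 mean per group called 0 of 10 members, with 0.0131% of all genes called; at an unadjusted p below the threshold it held 1 member, Il18, against 14.7% of all genes. The paired limma fit, with array number as a block within each genotype, called 2 of 10, both higher, against 3.73% of all genes in either direction and 2.99% higher. At an unadjusted p the paired fit held 6 members, against 24.1% of all genes. All 3 pairs moved upward for 6 members, against 25.8% of all genes.

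The sensor Nlrp3 read 6.84, 7.05 and 6.80 on wild-type control arrays 1 to 3 and 6.97, 7.58 and 6.94 after ischemia. Array 2 was the highest of both groups and the groups overlapped. The difference was 0.27 (SE 0.18, limma adjusted p = 0.481; paired limma adjusted p = 0.169). The adaptor Pycard differed by 0.20 (SE 0.13, limma adjusted p = 0.465), with 1 of its 3 pairs lower after ischemia.

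Casp1, the protease that matures interleukin-1 beta, was higher in every pair, by 0.87, 0.24 and 0.07, a mean of 0.39 (paired limma adjusted p = 0.129). Casp4 encodes mouse caspase-11, the protease of the noncanonical inflammasome, which binds intracellular lipopolysaccharide. It read 7.13, 8.94 and 7.70 in control and 8.40, 9.26 and 8.15 after ischemia. Both number 2 arrays were the brightest of their groups, and because control array 2 exceeded 2 of the ischemia arrays the groups overlapped. Within pairs it was higher by 1.27, 0.32 and 0.44, so it rose in the paired fit by 0.68, or 1.60-fold (block SE 0.16, limma adjusted p = 0.0333), while the fit without pairs gave SE 0.38 and limma adjusted p = 0.415.

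The Casp4 call rested on which pairs entered. Without both wild-type arrays numbered 2, which carried the high macrophage markers, the paired rise was 0.85 (limma adjusted p = 0.0306). Without pair 1 it was 0.38 (adjusted p = 0.30), without pair 3 it was 0.79 (adjusted p = 0.0620), and a fit restricted to the 6 wild-type arrays gave adjusted p = 0.0502. These alternatives were added after the data were seen. Casp1 and Casp4 are neighbours on chromosome 9 in the RefSeq annotation, and both were brightest on the wild-type arrays numbered 2. So were Nlrp3, Gsdmd, Il18 and Il18bp, so this was not particular to the neighbours.

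Gsdmd, the substrate whose cut fragment opens pores in the cell membrane, was higher in each wild-type pair, by 0.19, 0.30 and 0.16, with a mean difference of 0.22 (SE 0.11, limma adjusted p = 0.386; paired limma adjusted p = 0.182). Its pairs differed among themselves less than those of the other members that were higher in every pair.

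Among the cytokines, Il18 showed the clearest difference. Interleukin-18 acts on lymphocytes to raise interferon gamma, and its precursor is kept in resting macrophages. Il18 read 5.48, 6.01 and 5.53 in wild-type control and 6.74, 7.13 and 6.10 after ischemia. Every ischemia array lay above every control array, with ischemia array 3 and control array 2 close to each other. Such separation in either direction was found for 1 of the 10 members and for 21.7% of all genes, and an exact two-sided permutation test of 3 against 3 arrays gave its smallest possible value, p = 0.1. The rise of 0.98, or 1.98-fold (95% interval 0.66 to 1.31 in the paired fit), came from pair differences of 1.26, 1.12 and 0.57 (paired limma adjusted p = 0.00292). Without pairs the limma adjusted p was 0.255.

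The paired Il18 call was kept without pair 1 (0.85, limma adjusted p = 0.0374), without pair 2 (0.92, adjusted p = 0.0273), without pair 3 (1.19, adjusted p = 0.00177) and in a fit of the wild-type arrays alone (adjusted p = 0.00476). Its control signals were close to the dim filter, so a filter at the 50th percentile of all probe sets left Il18 and Il1b untested.

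Il1a, which encodes an alarmin that is active without caspase-1 cleavage, did not follow condition in wild-type cells. It read 9.08, 6.34 and 8.05 in control and 8.31, 6.69 and 8.32 after ischemia. In both groups array 2 was lowest, by over 1 log2 unit, the reverse of the order for Casp1 and Casp4. The pair means were 8.69, 6.52 and 8.19, a range of 2.18, while the mean difference with ischemia was -0.05 (paired 95% interval -0.46 to 0.36; limma adjusted p = 0.981 without pairs).

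Il1b, the classical NF-kappa B driven product of primed macrophages, read 7.98, 6.21 and 5.86 in wild-type control and 7.37, 7.07 and 6.69 after ischemia. Control array 1 was the highest of all 6, and the groups overlapped. The pairs disagreed in direction, with differences of -0.61, 0.86 and 0.82 and a mean of 0.36 (SE 0.40, limma adjusted p = 0.685; paired limma adjusted p = 0.314). Without pair 1 the paired fit gave 0.84 (limma adjusted p = 0.0109), so whether Il1b was called turned on that pair. Il1a and Il1b are neighbours on chromosome 2, and control array 1 was the highest wild-type array for both. After ischemia they parted, with array 3 the highest of its group for Il1a and the lowest for Il1b.

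The antagonists showed smaller differences. Il1rn, whose product occupies the interleukin-1 receptor without signalling, was higher in each pair, by 0.04, 0.73 and 0.49, a mean of 0.42 (paired limma adjusted p = 0.0890). Il18bp, whose secreted product captures interleukin-18, differed by 0.14 (paired limma adjusted p = 0.443).

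To show the DNA next to the start sites of the members that passed, of Il1b as a primed cytokine gene, and what motifs a search found there, the 250 bases before the start were taken from RefSeq (GRCm38.p6), which held 13 such windows for 9 of the 10 members. Gsdmd had no window. They are written 5′ to 3′ in the direction of the gene, in lower case, with kappa B sites in capitals. The windows are chr9:5308599-5308848, plus strand for the first Casp4 start, chr9:50554450-50554699, plus strand for Il18 and chr2:129371140-129371389, minus strand for Il1b.
Casp4: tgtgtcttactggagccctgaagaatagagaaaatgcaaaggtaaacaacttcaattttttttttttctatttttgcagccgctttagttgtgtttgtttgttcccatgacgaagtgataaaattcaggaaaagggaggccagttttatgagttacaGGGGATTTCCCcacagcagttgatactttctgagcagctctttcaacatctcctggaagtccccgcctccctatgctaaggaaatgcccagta
Il18: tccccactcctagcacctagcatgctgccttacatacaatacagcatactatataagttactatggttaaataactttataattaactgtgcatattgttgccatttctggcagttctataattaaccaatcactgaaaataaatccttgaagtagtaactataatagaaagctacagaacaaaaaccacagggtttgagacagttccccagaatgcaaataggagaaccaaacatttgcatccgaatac
Il1b: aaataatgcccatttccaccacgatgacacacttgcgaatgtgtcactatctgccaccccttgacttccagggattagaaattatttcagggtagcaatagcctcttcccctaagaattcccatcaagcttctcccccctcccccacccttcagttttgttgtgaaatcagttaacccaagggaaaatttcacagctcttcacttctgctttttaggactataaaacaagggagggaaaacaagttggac

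The capitals in the Casp4 window are a pair of overlapping kappa B matches between bases -93 and -83 from the start. On both strands, kappa B sites were found in 3 of 13 windows, those of 2 of 9 members, Casp4 and Nlrp3, and in 3.92% of 32536 windows of all genes. The 2 Casp4 windows overlap and hold the same site. The kappa B search took GGG, A or G, any base, A or T, C or T at 2 bases, then CC. The AP-1 element TGANTCA was found in 2 of 13 windows, for Il1a and Il1rn, against 6.73% of all windows, and overlaps a hypoxia core match in Il1rn. The hypoxia response element core, ACGTG or GCGTG, was found in 3 of 13 windows, for Nlrp3, Casp1 and Il1rn, against 38.8% of all windows, and is not capitalised. The interferon-stimulated response element, searched as GAAA, any 2 bases and GAAA again (2.98% of all windows), and the gamma-activated site TTCNNNGAA (7.04%) were found for 0 of 9 members. A match is a match of letters only, and its absence says only that these letters are not in this window.

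The same comparison in knockout-labelled microglia had no member past the threshold. Again 9 of 10 members had a higher mean after ischemia, here with Il1b lower, against 49.8% of all genes higher. The median member difference was 0.26, against -0.001 over all genes. The limma fit without pairs called 0 of 10 members and 0% of all genes, and held 1 member at an unadjusted p, against 8.73% of all genes. The paired fit called 0 of 10, against 0.648% of all genes, and held 5 at an unadjusted p, against 19.2%.

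Nlrp3 showed the largest difference there. It read 6.53, 6.83 and 6.33 in knockout-labelled control and 7.27, 7.14 and 6.85 after ischemia. All 3 ischemia arrays lay above all 3 control arrays, a separation shared by 1 of 10 members and by 14.3% of all genes, although ischemia array 3 and control array 2 were nearly equal. The difference was 0.52, or 1.44-fold (SE 0.18, limma adjusted p = 0.560), with pair differences of 0.75, 0.31 and 0.51 (paired limma adjusted p = 0.0555). The exact two-sided permutation test again gave its smallest possible p = 0.1.

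The proteases and Il18 were higher in each knockout-labelled pair without passing the test. Casp1 differed by 0.37 (paired limma adjusted p = 0.189) and Casp4 by 0.37 (paired limma adjusted p = 0.224). Il18 read 5.73, 6.01 and 5.27 in control and 5.94, 6.10 and 6.13 after ischemia, and the groups overlapped because control array 2 exceeded ischemia array 1. Its difference of 0.38 (paired limma adjusted p = 0.194) came mostly from pair 3, at 0.85, against 0.20 and 0.09 in the other pairs. Control array 3 of this genotype was the array least like the rest, with a median correlation of 0.976 with the other arrays. It was the lowest of its group for 7 of the 10 members. Wild-type ischemia array 3, with a median correlation of 0.985, was the lowest of its group for 8 of 10. Such a count is therefore not particular to the array least like the rest, and its share over all genes was not counted.

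Il1b stayed low in knockout-labelled cells, at 5.96, 5.60 and 5.82 in control and 5.45, 5.69 and 5.57 after ischemia, a difference of -0.22 (paired limma adjusted p = 0.60). Il1a differed by 0.19, Il1rn by 0.33, Pycard by 0.13, Gsdmd by 0.04 and Il18bp by 0.00, with limma adjusted p-values without pairs between 0.647 and 0.995. Il1rn was 8.24 or 8.25 on all 3 control arrays and 8.75, 8.74 and 8.24 after ischemia, so arrays 1 and 2 were higher and array 3 was at the control level.

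**Figure D2:**
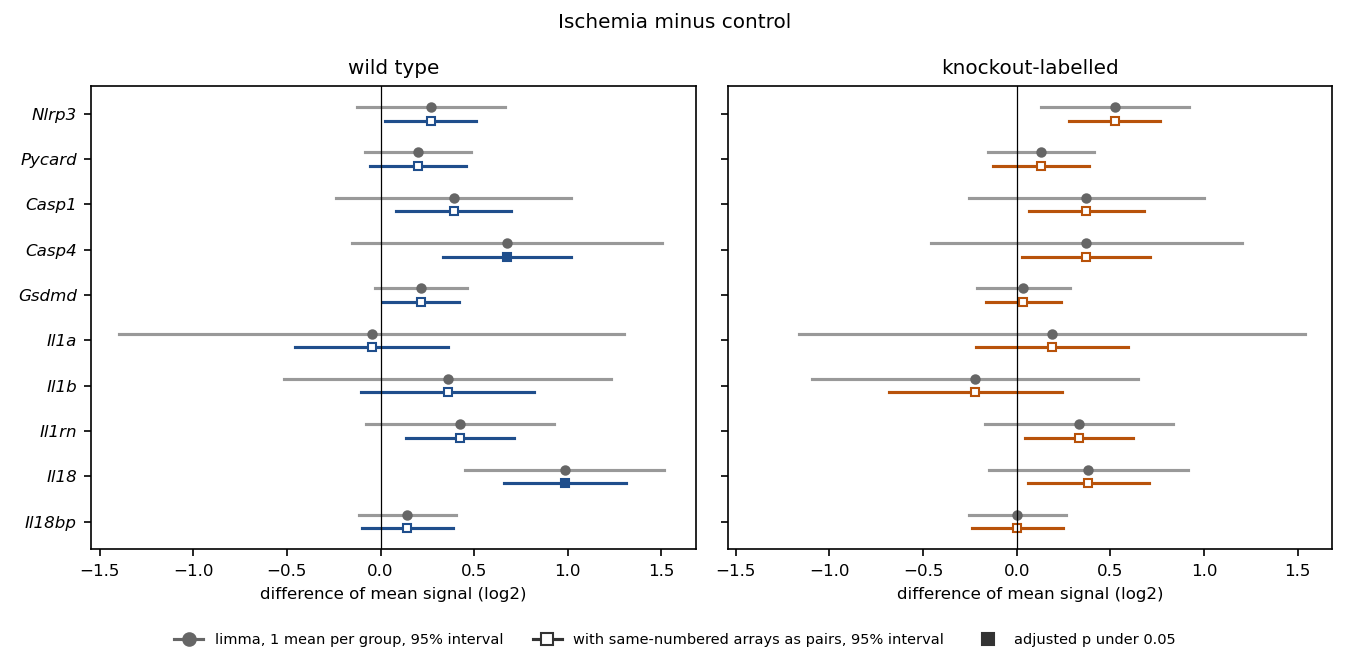
Difference of mean signal, ischemia minus control (log2, horizontal axis), for each member in wild-type (left) and knockout-labelled cells (right). Grey circles with 95% intervals are from limma with 1 mean per group. Squares with 95% intervals are from the paired fit, whose pairs were taken from the data and not from the labels. Squares are filled where the adjusted p is under 0.05, as they are for Casp4 at 0.68 and Il18 at 0.98 in wild-type cells.

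Whether the genotypes responded differently was tested directly as the difference between the 2 ischemia effects. No member passed. The limma fit without pairs called 0 of 10 members and 0% of all genes, and held 0 members at an unadjusted p, against 2.90% of all genes. The paired fit called 0 of 10, against 0.308% of all genes, and held 1, Il18, against 8.45%. For Il18 the knockout-labelled minus the wild-type response was -0.60 (paired 95% interval -1.06 to -0.14, limma adjusted p = 0.483). For Casp4 the difference of responses was -0.30 (paired 95% interval -0.79 to 0.18), for Il1b -0.58 (-1.23 to 0.07) and for Nlrp3 0.25 (-0.09 to 0.60). The Il18 and Casp4 calls in wild-type cells were therefore not shown to be particular to that genotype.

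The genotypes were next compared in control cells. Of the 10 members 7 had a lower mean in knockout-labelled cells, while Pycard, Il18bp and Il18 had a slightly higher one, against 50.8% of all genes higher. The median member difference was -0.30, against 0.00 over all genes. limma called 0 of 10 members, against 0.0589% of all genes, and held 2 at an unadjusted p, Gsdmd and Il1b, against 7.14%.

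Gsdmd read 8.63, 8.85 and 8.64 in wild-type control and 8.42, 8.46 and 8.44 in knockout-labelled control. All knockout-labelled arrays lay below all wild-type arrays, as was so for 1 of 10 members and, in either direction, for 9.89% of all genes. The difference was -0.27 (SE 0.11, limma adjusted p = 0.687; exact permutation p = 0.1). For Il1b the knockout-labelled control values of 5.60 to 5.96 overlapped the wild-type values, since wild-type array 3 stood at 5.86, while wild-type array 1 stood at 7.98. The difference was -0.89 (SE 0.40, limma adjusted p = 0.694). Il1a differed by -0.89 as well, with SE 0.62 and limma adjusted p = 0.733. Il18 had equal means, a difference of 0.00 (95% interval -0.53 to 0.53).

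After ischemia the genotypes differed most in Il1b, which had a lower signal in knockout-labelled cells, together with Gsdmd, Casp4 and Il18, though none passed the test over all genes. Of the 10 members 9 had a lower mean and only Pycard a higher one, against 52.7% of all genes higher. The median member difference was -0.43, against 0.01 over all genes. limma called 0 of 10 members, against 0.714% of all genes, and held 4 at an unadjusted p, against 8.35%. Groups did not overlap for 3 members, Casp4, Gsdmd and Il1b, against 16.5% of all genes in either direction and 8.07% lower.

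Il1b read 7.37, 7.07 and 6.69 in wild-type ischemia and 5.45, 5.69 and 5.57 in knockout-labelled ischemia. Every wild-type array stood well above every knockout-labelled array. The difference was -1.47, or 2.77-fold lower (95% interval -2.34 to -0.60, SE 0.40, limma adjusted p = 0.178; exact permutation p = 0.1). The knockout-labelled values lay close to the dim filter of 5.36, so the size of this fold rests on signals near that limit. With only the 6 ischemia arrays in the fit, so that the scattered wild-type control values no longer entered the error, the limma adjusted p was 0.0138, and over all alternatives it ran from 0.0138 to 0.606. Leaving out both wild-type arrays numbered 2 gave -1.46 (limma adjusted p = 0.165).

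Gsdmd read 8.82, 9.15 and 8.79 in wild-type ischemia and 8.36, 8.46 and 8.60 in knockout-labelled ischemia, with no overlap. It differed by -0.45, or 1.36-fold lower (SE 0.11, limma adjusted p = 0.133), and by -0.33 without both wild-type arrays numbered 2 (limma adjusted p = 0.202). Casp4 lay between 7.42 and 7.95 on the knockout-labelled ischemia arrays and between 8.15 and 9.26 on the wild-type ones, a difference of -0.90 (SE 0.38, limma adjusted p = 0.533). Il18 differed by -0.60 (SE 0.25, limma adjusted p = 0.513), with overlap, because wild-type array 3 at 6.10 lay among the knockout-labelled values.

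Among the remaining members Il1rn differed by -0.42, Casp1 by -0.17, Nlrp3 by -0.08, Il18bp by -0.09 and Pycard by 0.06, with limma adjusted p-values from 0.686 to 0.961. Il1a differed by -0.66 with a 95% interval from -2.01 to 0.69. With this spread neither an equal nor a much lower signal in knockout-labelled cells was excluded.

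**Figure D3:**
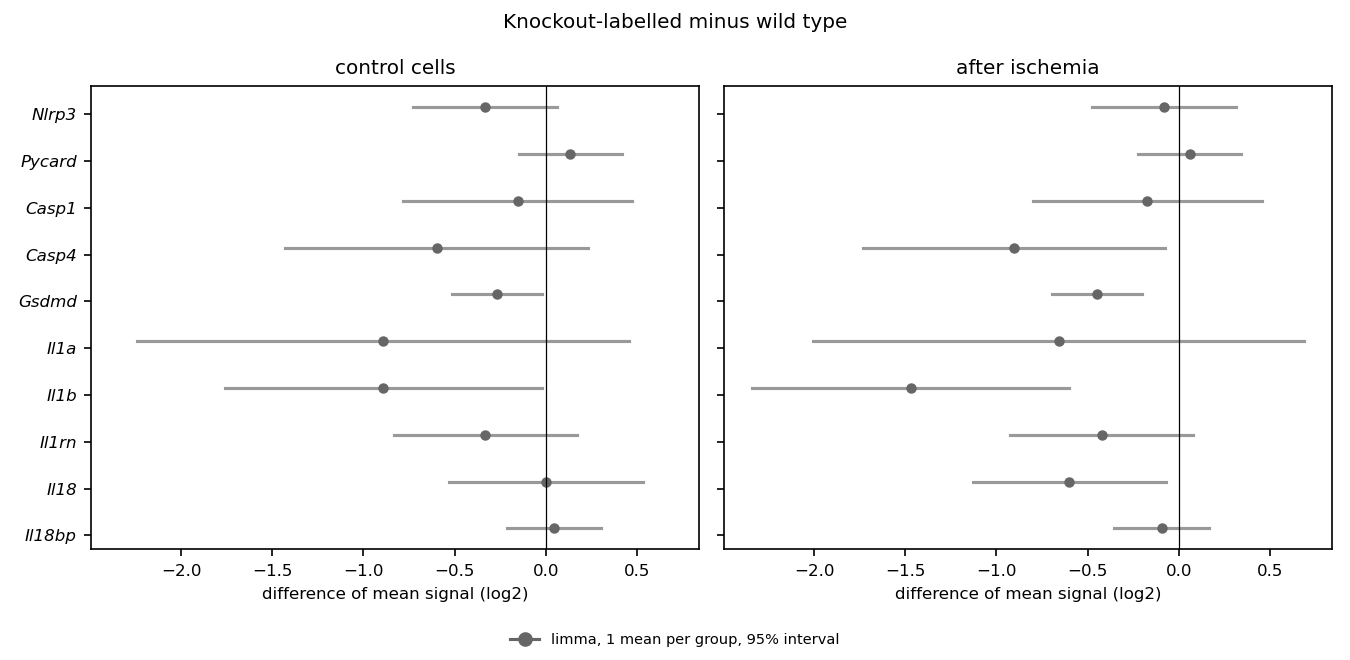
Difference of mean signal, knockout-labelled minus wild type (log2, horizontal axis), for each member in control cells (left) and after ischemia (right), as points with 95% intervals from limma with 1 mean per group and 3 arrays in each. Il1b lies farthest to the left after ischemia, at -1.47, and no member passed the adjusted threshold in either panel.

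The members were then set among 7 lists of other pathway genes, described by counts and medians. The lists were chosen with earlier results of these data known. Their counts beside the shares of all genes are therefore a description and no test of an excess. Sensors other than Nlrp3 had 10 of 16 genes past the dim filter. In wild-type cells 9 of the 10 were higher after ischemia, against 52.4% of all genes, with a median of 0.24 against 0.01. In the paired fit 2 rose, against 2.99% of all genes: Zbp1, a sensor of Z-form nucleic acids, by 1.49 (limma adjusted p = 1.18e-05) and Nlrp1a by 0.51 (limma adjusted p = 0.0304). The paired fit kept Zbp1 alone when both wild-type arrays numbered 2 were left out. Zbp1 read 7.41, 8.74 and 7.65 in wild-type control, 9.13, 10.34 and 8.78 in wild-type ischemia, and 6.69 to 7.16 on all 6 knockout-labelled arrays. After ischemia its difference, knockout-labelled minus wild type, was -2.58 (limma adjusted p = 0.00693), and its 2 responses differed by -1.62 (paired limma adjusted p = 0.000591; adjusted p = 1.00 without pairs). Among members and lists, it and Gbp3 (paired limma adjusted p = 0.0307) were the 2 genes with a called difference of responses, against 0.308% of all genes. With both wild-type arrays numbered 2 left out, the paired difference of responses was -1.56 for Zbp1 (limma adjusted p = 0.00717) and -1.04 for Gbp3 (limma adjusted p = 0.146), so the Gbp3 call was lost.

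Regulators of inflammasome assembly had 24 of 26 genes tested. In wild-type cells 23 were higher after ischemia, against 52.4% of all genes, with a median of 0.23. In the paired fit 7 rose, against 2.99% of all genes. Those with the largest rises were Gbp3 (1.23, paired limma adjusted p = 0.000408), Mlkl (0.98, 0.000970), Gbp7 (0.97, 0.0122) and Gbp5 (0.94, 0.00657), and the others were Irf1, Brcc3 and Fadd. Guanylate-binding proteins such as Gbp3 coat intracellular bacteria and aid caspase-11, MLKL is the pore former of necroptosis, and the transcription factor IRF1 induces guanylate-binding proteins. With both wild-type arrays numbered 2 left out the paired fit called 4, namely Mlkl, Gbp3, Gbp5 and Irf1.

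In knockout-labelled cells 15 of the 24 regulators were higher after ischemia, against 49.8% of all genes, and Brcc3, which encodes a deubiquitinase that acts on NLRP3, rose by 0.58 in the paired fit (limma adjusted p = 0.0241), which called 0.648% of all genes. Without pair 3, which holds the control array least like the rest, the Brcc3 difference was 0.51 and not called (limma adjusted p = 0.184). After ischemia 18 of the 24 were lower in knockout-labelled than in wild-type cells, with a median of -0.21, whereas 52.7% of all genes were higher. Of these 4 passed limma without pairs, against 0.714% of all genes in either direction: Gbp3 by -1.85 (adjusted p = 0.0374), Tmem176a by -1.82 (adjusted p = 0.0454), Mlkl by -1.54 (adjusted p = 0.00770) and Irf1 by -0.69 (adjusted p = 0.0322). Without both wild-type arrays numbered 2, 4 regulators again passed, with Tmem176b in place of Irf1 (-0.65, limma adjusted p = 0.0517).

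The lists nearer the receptor came next. Of 6 tested executioners and other caspases and of 4 tested receptors, 0 were called in any of the 5 comparisons in either limma fit. The largest share of all genes called in these fits was 3.73%, for ischemia in wild-type cells with pairs. In lists this short 0 calls are therefore no result about the lists. At an unadjusted p, 1 at most of each list was held in any comparison by either fit, against 24.1% of all genes for ischemia in wild-type cells with pairs. The receptor chain Il1rap, shared by the interleukin-1 and interleukin-33 receptors, differed by 0.28 with ischemia in wild-type cells (paired limma adjusted p = 0.120) and by -0.36 between genotypes after ischemia (limma adjusted p = 0.362). None of 6 other interleukin-1 family ligands passed the dim filter, and 2 of them had a named probe set at all. Among 14 tested genes of receptor signalling, Nfkbia, the NF-kappa B inhibitor that NF-kappa B itself induces, was lower in knockout-labelled cells after ischemia, with a difference of -0.76 (limma adjusted p = 0.0179), at 8.95, 9.08 and 8.97 against 9.55, 9.79 and 9.93.

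Genes that interleukin-1 induces in macrophages, of which 12 of 13 were tested, had 7 higher and 5 lower after ischemia in wild-type cells, with a median of 0.09. Saa3, an acute-phase protein, rose by 0.54 in wild-type cells with pairs (limma adjusted p = 0.0478), and without both wild-type arrays numbered 2 its difference was 0.42 and not called (limma adjusted p = 0.19). Cxcl2, a neutrophil-attracting chemokine, differed by -0.76 (paired limma adjusted p = 0.0978). Ptgs2, the inducible cyclooxygenase, differed by -0.997 (paired limma adjusted p = 0.0818), and fell by 1.55 in the paired fit without both wild-type arrays numbered 2 (limma adjusted p = 0.0147). Saa3 was lower in knockout-labelled cells, with a difference of -1.48 in control (limma adjusted p = 0.0374) and of -1.63 after ischemia (limma adjusted p = 0.00547). Lcn2, which encodes an iron-scavenging protein, was lower after ischemia, by -1.53 (limma adjusted p = 0.0286). Saa3 stood at 10.34, 10.94 and 10.59 in wild-type ischemia and at 8.92, 8.69 and 9.38 in knockout-labelled ischemia. After ischemia 8 of the 12 induced genes were lower in knockout-labelled cells, with a median of -0.31 against 0.01 over all genes, of which 52.7% were higher.

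**Figure D4:**
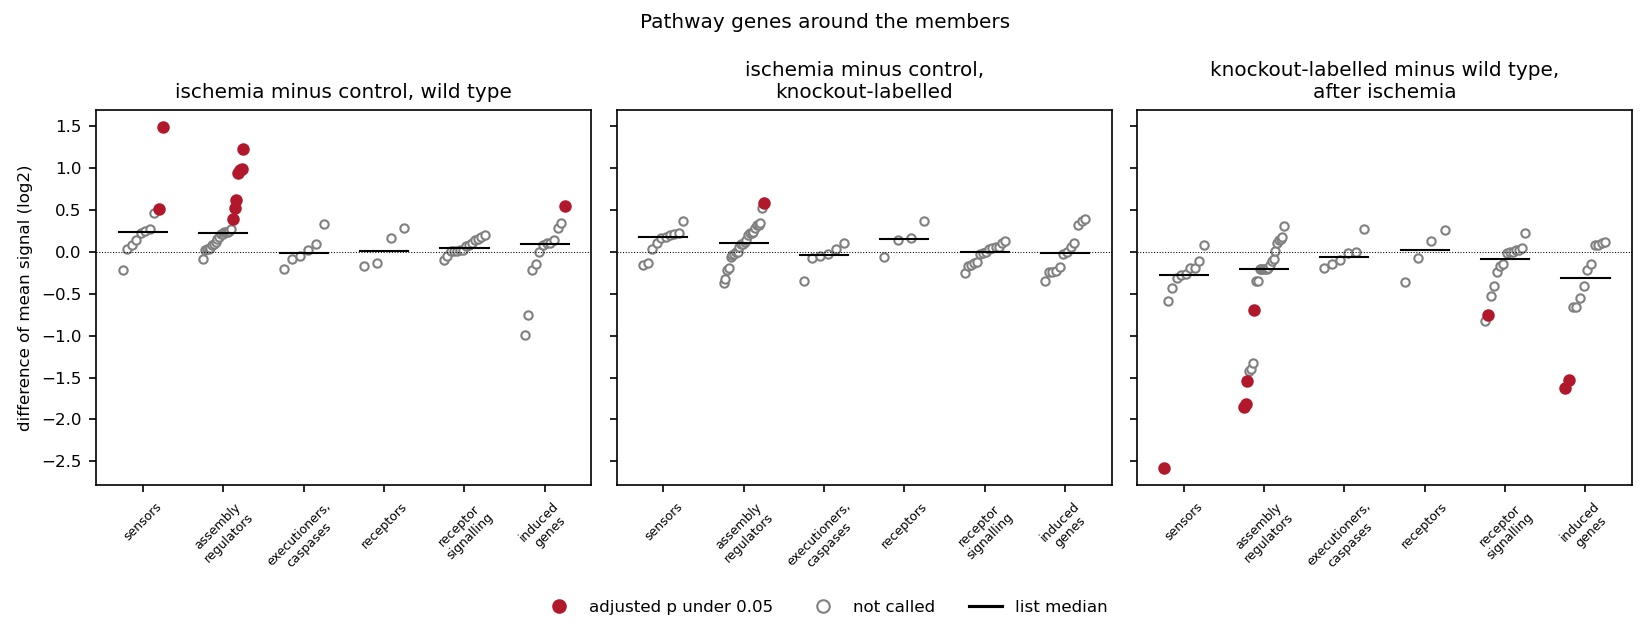
Difference of mean signal (log2, vertical axis) for each tested gene of 6 pathway lists, with list medians as bars, for ischemia in wild-type cells, ischemia in knockout-labelled cells, and knockout-labelled minus wild type after ischemia. Red points passed an adjusted p under 0.05 (paired limma in the first 2 panels, limma without pairs in the third): 2 sensors, 7 regulators and 1 induced gene in the first, 1 regulator in the second, and 1 sensor, 4 regulators, 1 signalling gene and 2 induced genes in the third.

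As a description of how 4 members varied over the 12 arrays, the genes with the most similar profiles were sought by Pearson correlation among the other 15272 tested genes. For Nlrp3 the closest were L3mbtl2 (r = 0.96), Zfp330 (0.94), Trit1 (0.92) and Noc3l (0.92). For Casp1 they were Samsn1, Psma6, Haus1 and Akr1e1, all with r of 0.96. For Il1b they were Gbgt1 (r = 0.95), Atp10a (0.92), Mak (0.86) and Tent5a (0.85), and for Il1rn they were Mtap (r = 0.90), Spata13 (0.89), Il1rap (0.89) and Ap2a2 (0.88). The 12 points share 4 groups and the array pairs, and these are the highest of many correlations, so no p is given.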

How the data were processed

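RNA of 12 samples of primary mouse microglia was hybridised to Affymetrix Mouse Gene 1.0 ST arrays. Per the submitters' processing notes, the authors used Affymetrix Expression Console 1.1 and RMA, and the deposited values are log2 signals, between 1.25 and 14.5, for 35557 probe sets, of which 21789 carry 1 gene symbol in the platform annotation, 1621 several and 12147 are not listed there. The values were used as deposited, without further normalization. No source used here gives the build behind the annotation.

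The brightest probe set of each gene by mean over the arrays was kept. Genes whose mean did not exceed the 30th percentile of the means of all probe sets, named or not, were removed as dim. Tests used limma 3.58.1 (R 4.3.3), with lmFit and eBayes on all 12 arrays, 1 mean per group and Benjamini-Hochberg adjustment. The scripts were tested on simulated data. A paired fit had array number as a block within each genotype (6 levels). Residuals of same-numbered arrays correlated at 0.48 to 0.73 in wild-type and 0.32 to 0.49 in knockout-labelled cells. Arrays of different number correlated at -0.62 to 0.40 in wild-type and -0.44 to 0.22 in knockout-labelled cells. The highest of these, wild-type control array 1 with ischemia array 3, came near the lower same-number values. The numbers were taken as pairs within a genotype from the data, since the labels do not explain them. Across genotypes same-numbered arrays correlated at -0.33 to 0.33 and no pairing was assumed. No source used here gives a slide or scan batch. The number of arrays limits the precision, which the standard errors give.

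The members and the pathway and marker lists were chosen with earlier results of these data known. Named genes were all members and, from each list and comparison, up to 4 called genes with the largest change, filled to 2 by the smallest p where fewer were called. Fadd, Tmem176b, Ptgs2 and the further genes given only beside a count fall outside this rule and were named after their values were seen. Marker means over the 12 arrays ran from 4.83 to 5.14 for lymphocytes, 5.26 to 5.66 for neurons, 5.67 to 6.32 for fibroblasts and mural cells, 6.13 to 6.59 for astrocytes, 6.59 to 7.26 for oligodendrocytes and 6.72 to 7.09 for endothelial cells. RefSeq promoter windows were searched for 5 motifs on both strands. Alternatives changed the filter, normalization, block, samples in the fit and single arrays.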

Additional observations from a re-analysis of the deposited data

How the results depend on the processing

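The number of arrays, 3 a group, limits the precision, and the fit without pairs called 0 of 10 members in each comparison. The replicate block, treating same-numbered arrays as pairs, raised the count of called genes from 2 to 570 for ischemia in wild-type cells, with 2 members (Il18 and Casp4), from 0 to 99 in knockout-labelled cells and from 0 to 47 for the difference of responses. It changed no other member's call. A block with 3 levels gave 31 genes in place of 9 between control cells and 236 in place of 109 after ischemia, with 0 members, although the numbers do not pair the genotypes. With only the 2 groups compared the counts were 1 for ischemia in wild-type cells and 0 between control cells, and 1 member, Il1b, was called between genotypes after ischemia. Quantile normalization gave 1 gene for ischemia in wild-type cells.

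The following were chosen after seeing the data. Without both wild-type arrays numbered 2 the counts were 80 for ischemia in wild-type cells, 100 between control cells, 295 between genotypes after ischemia and 1 for the difference of responses. With pairs they were 488 (2 members) for ischemia in wild-type cells and 30 for the difference of responses. The paired fit on wild-type arrays alone called 468 genes and 1 member, without pair 1 it called 143 and 2 members (Il18 and Il1b), and without pair 3 it called 248 and 1 member. In knockout-labelled cells the paired counts were 84 on those arrays alone, 753 without pair 1, 4 without pair 2 and 2 without pair 3. Leaving out single arrays gave 1 to 79 genes for ischemia in wild-type cells, 0 to 23 between control cells, 25 to 95 after ischemia and 0 to 1 for the difference of responses. The cause of these shifts was not tested.

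Of 870 member values under alternatives 53 had the other sign. None of them was an Il18 or Casp4 value for ischemia in wild-type cells, while Il1b there, called in the paired fit without pair 1 (0.84), was -0.053 without wild-type control array 3. For ischemia in wild-type cells Il1a was 0.012 with median centring and 0.31 in the paired fit without pair 1. In knockout-labelled cells quantile normalization gave Gsdmd -0.023 and Il18bp -0.038. The paired fit without pair 2 gave Il18bp -0.044, and without pair 3 Pycard -0.022, Gsdmd -0.026 and Il18bp -0.069. Lacking both wild-type arrays numbered 2, Casp1 was 0.17 between control cells, and after ischemia Nlrp3 was 0.13, Pycard -0.030 and Casp1 0.082. The difference of responses was then 0.063 for Il1rn, with pairs or without, and 0.006 for Casp1 with quantile normalization.

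Single arrays left out gave these ranges. For ischemia in wild-type cells Il1a ran from -0.79 to 0.58 and Il1b from -0.053 to 1.00. In knockout-labelled cells Il1a ran from -0.16 to 0.61, Gsdmd from -0.027 to 0.093 and Il18bp from -0.050 to 0.067. Between control cells Casp1 ran from -0.43 to 0.17, Il18 from -0.17 to 0.20 and Il18bp from -0.010 to 0.10. After ischemia Nlrp3 ran from -0.19 to 0.13, Pycard from -0.061 to 0.14 and Casp1 from -0.38 to 0.082. For the difference of responses Casp1 ran from -0.35 to 0.26, Casp4 from -0.81 to 0.093, Pycard from -0.19 to 0.025, Il1a from -0.39 to 0.98 and Il1rn from -0.29 to 0.14. With a filter at the 50th percentile Il18 and Il1b gave no value.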
